A study of Mus musculus with 8 samples.

Results

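Heat shock proteins and J-domain chaperones were taken as every gene whose symbol begins with Hsp followed by a, b, d, e, h or a number, or with Dnaja, Dnajb or Dnajc, leaving out perlecan (Hspg2), a proteoglycan that shares only the letters. The rule used names and no measured value, and it found 61 of the 12393 genes on the array. They comprised 2 HSP90 genes, 12 HSP70 and HSP110 genes, 6 genes classed by symbol alone as small heat shock proteins (Hspb11 among them), and both subunits of the mitochondrial chaperonin. The others were the HSP70 cofactor Hspbp1, and 4 Dnaja, 12 Dnajb and 22 Dnajc genes. Hsp90ab1, Hspa12a, Hspa13, Hspb6, Hspb9, Hspbap1, Dnajb14 and Dnajc19 were not analysed here.

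Total RNA came from mouse embryonic fibroblasts of a C57BL/6 x 129Ola strain background, collected 4 h after mock transfection or transfection with B-DNA, the synthetic double-stranded DNA poly(dA-dT)-poly(dT-dA). The cells were WT (Tbk1+/+ Ikbke+/+), Tbk1-/-, Ikbke-/- or Tbk1-/- Ikbke-/-, with 1 array for each of the 8 combinations. The products of Tbk1 and Ikbke are kinases of 1 family, which switch on interferon regulatory factors once foreign nucleic acid is sensed. No group had a replicate, and both arrays of a genotype may come from 1 cell preparation, so genotype and preparation cannot be told apart.

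HSP70 proteins bind unfolded stretches of other proteins and release them in a cycle driven by ATP. J-domain proteins deliver clients to HSP70 and speed up its ATP hydrolysis, HSP110 proteins exchange its nucleotide, HSP90 acts later on kinases and receptors, and small heat shock proteins hold aggregating proteins without ATP. Heat and protein damage raise the cytosolic genes through the factor Hsf1, whereas stress in the endoplasmic reticulum raises a separate set through Atf6 and Xbp1. In fibroblasts most of these genes are also expressed without stress.

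Signals are the deposited MAS5 intensities after each array was scaled to 1 common trimmed mean. A floor of 122, the 40th percentile of all scaled values, marks signals with no measured order, and a ratio was counted at 2-fold or more where its higher value reached 244. Of the members, 56 reached the floor on at least 1 array and 48 on all 8. Hspa1l, Dnajb3, Dnajb7, Dnajb13 and Dnajc17 stayed under it on all 8. Signals of different probe sets have no common scale, so levels are compared between arrays and not between genes.

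The samples were checked by 3 marker lists and by the targeted genes. Between 11 and 12 of 12 fibroblast markers reached 244 on each array. Of 18 macrophage and leukocyte markers, 14 reached it on the WT mock array and 11 on the WT B-DNA array, against 1 or 2 on the other 6 arrays, with summed signals of 16540, 5763 and 1461 to 1944. Muscle markers numbered 0 to 2 of 10. Tbk1 signals were 472 to 989 on the 4 arrays of cells with the gene and 226 to 390 on those without it, and Ikbke was under the floor everywhere; whether the probes lie in the deleted parts is not given in the sources used here. Xist, expressed from the inactive X chromosome of female cells, was at 2950 to 3766 on the arrays of WT and Tbk1-/- cells and at 138 to 209 on those of both Ikbke-/- genotypes, so embryo sex and Ikbke genotype cannot be told apart. All 7 interferon-stimulated control genes were 2-fold or more higher on the B-DNA array of the WT and Ikbke-/- pairs, and 0 of 7 were in the other pairs.

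B-DNA left nearly all chaperone genes within 2-fold of their mock level. In WT cells 0 members were higher and 1 was lower, against 3.27% and 1.89% of the 9626 genes tested (5.16% in either direction). In Tbk1-/- cells no member passed in either direction, where 0.696% of genes did. In Ikbke-/- cells 0 members were higher and 1 was lower, against 3.55% and 1.64% of genes (5.19% in either direction). In the double mutant 0 were higher and 1 was lower, against 0.54% and 0.748% (1.29%). Over all 4 pairs 3 of 56 members passed (5.36%), against 9.04% of genes. The median log2 ratio of the members was -0.08, 0.00, 0.00 and 0.01 in WT, Tbk1-/-, Ikbke-/- and double mutant cells, and 0.00 over all genes in each.

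**Figure D1:**
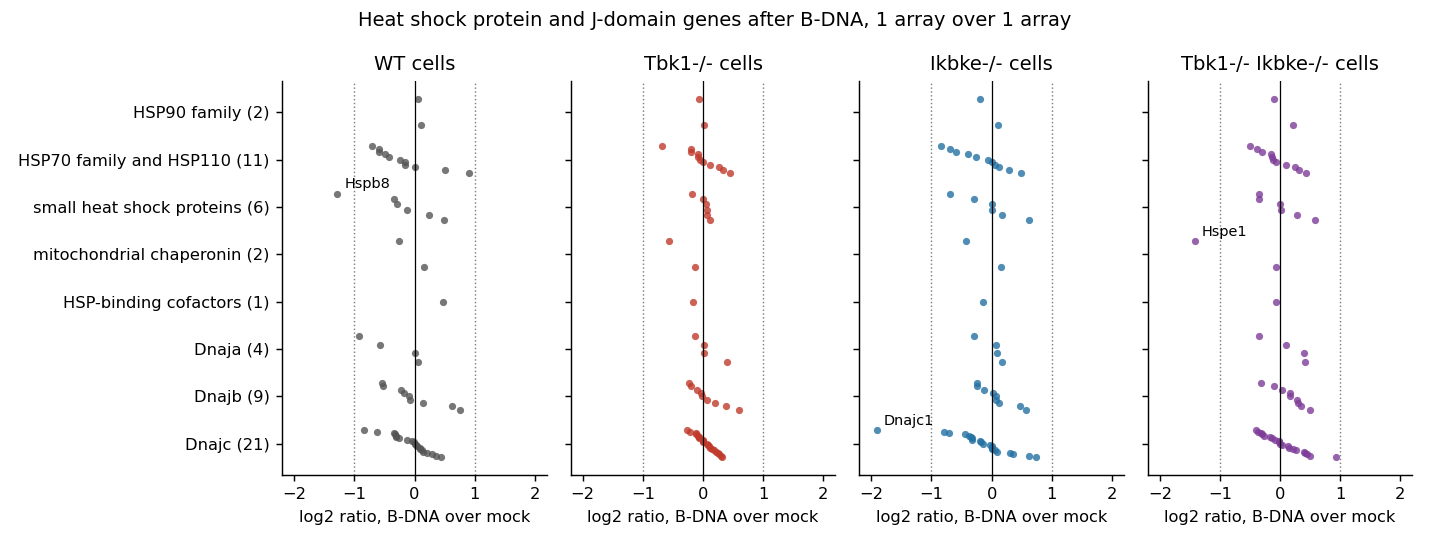
Log2 ratio of the B-DNA over the mock array (x axis) for the 56 measured members, by class (y axis, number of genes in brackets), 1 panel per genotype and 1 point per gene; dotted lines mark 2-fold. Points cluster around 0 in every class, and the 3 labelled genes lie beyond 2-fold, all lower.

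Each of the 3 genes past 2-fold did so in a different genotype. Hspb8, a small heat shock protein that works with the co-chaperone Bag3 in selective autophagy, had signals of 1617 on the WT mock array and 662 on the WT B-DNA array, a log2 ratio of -1.29. Its signals were 553 and 597 in Tbk1-/-, 790 and 486 in Ikbke-/-, and 511 and 618 in double mutant cells. The WT mock array thus stood above the other 7, which spanned 486 to 790. In the WT pair a second Hspb8 probe set read 1024 and 746, and the third read 499 and 521; with the mean over probe sets the log2 ratio was -0.56, under 2-fold. The macrophage and leukocyte markers also had their highest sum on the WT mock array and a lower one after B-DNA; their part in the Hspb8 values was not tested. In such bulk RNA, fewer cells of a type and less RNA per cell cannot be told apart.

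Dnajc1, a J-domain protein anchored in the endoplasmic reticulum membrane, read 665 on the Ikbke-/- mock array and 177 on the Ikbke-/- B-DNA array, a log2 ratio of -1.91. In the other genotypes its signals were 408 and 418 (WT), 347 and 402 (Tbk1-/-), and 298 and 564 (double mutant). A second Dnajc1 probe set showed no such drop, with 238 and 232 in Ikbke-/- cells. Hspe1, the lid subunit of the mitochondrial chaperonin, read 5114 on the double mutant mock array and 1909 on its B-DNA array, a log2 ratio of -1.42. Its other pairs were 3332 and 3717 (WT), 4133 and 2783 (Tbk1-/-), and 2978 and 3307 (Ikbke-/-). A second Hspe1 probe set read 1202 and 1138 in the double mutant. With the mean over probe sets the Dnajc1 and Hspe1 ratios were -0.65 and -0.75, both under 2-fold.

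**Figure D2:**
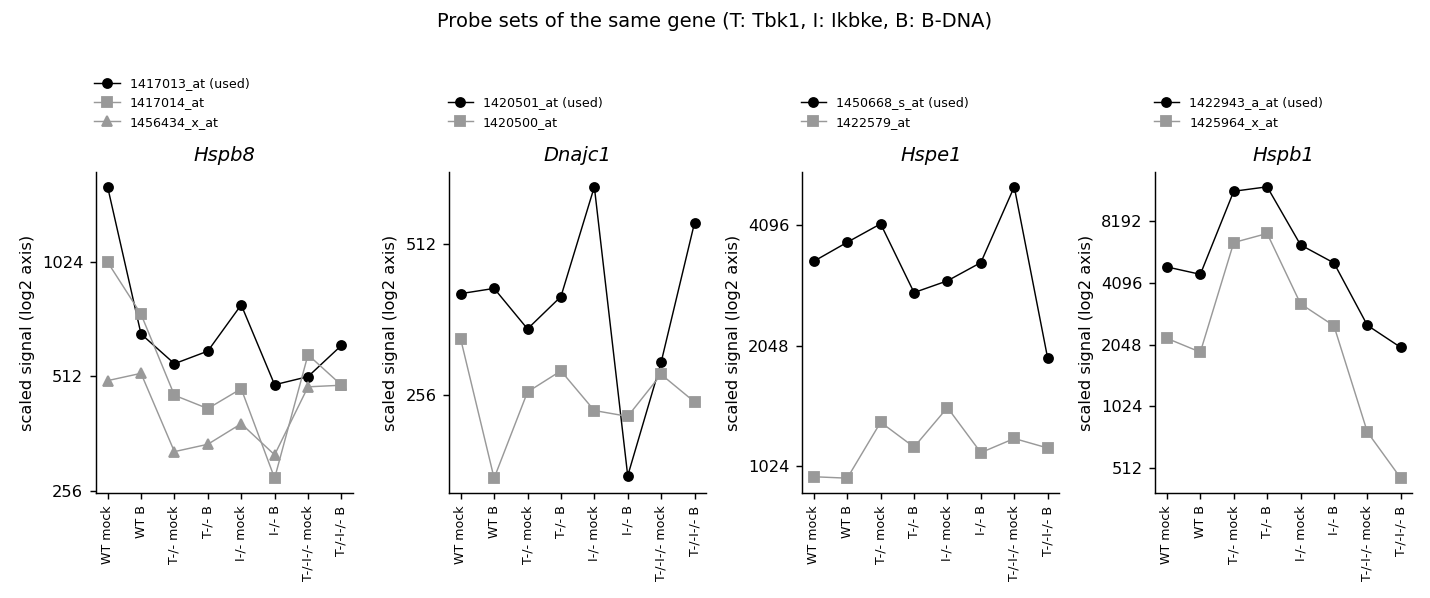
Scaled signal (y axis, log2 scale) on the 8 arrays (x axis) for each probe set of Hspb8, Dnajc1, Hspe1 and Hspb1 with a mean signal of at least 244; black is the probe set used, grey the others, and lines only join points of 1 probe set. The probe sets of Hspb1 run in parallel, while the low points of Dnajc1 (177) and Hspe1 (1909) appear in 1 probe set only.

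No member passed the test for an average response over the 4 pairs (limma with genotype as a block, Benjamini-Hochberg threshold 0.05). The fit called 0 of the 9626 genes (0.0%) in either direction, while 761 genes (7.91%) and 3 members (5.36%) had an unadjusted p under 0.05. Dnajb4, a heat-inducible partner of cytosolic HSP70, had the lowest adjusted p among the members. That value, 0.61 in limma, was also the lowest over all genes, and the co-chaperone genes Bag3 and Ahsa1 shared it. It thus does not single out Dnajb4. The Dnajb4 signals were 1368 and 2108 in WT, 1203 and 1562 in Tbk1-/-, 1573 and 2185 in Ikbke-/-, and 1235 and 1379 in double mutant cells. The B-DNA array was thus the higher in 4 of 4 pairs, with an average log2 difference of 0.41 (SE 0.11, limma adjusted p = 0.61), which did not pass. The second Dnajb4 probe set was also higher in every pair, with 624 and 1107 in WT cells and 485 and 590 in the double mutant.

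Hspa1a, an HSP70 gene strongly induced by heat, went the other way. Its signals were 394 and 261, 699 and 437, 509 and 338, and 321 and 308 in the WT, Tbk1-/-, Ikbke-/- and double mutant pairs, an average log2 difference of -0.48 (SE 0.13, limma adjusted p = 0.61). Probe sets of its near-identical copy Hspa1b, which may read both transcripts, did not share this direction. Their log2 ratios were 0.51, 0.38 and 0.77 in WT and -0.06, 0.25 and 0.43 in Ikbke-/- cells. In Tbk1-/- cells they were -0.05, -0.32 and 0.01, and in the double mutant -0.39, -0.67 and -0.25. By the probe set used, Dnajc5, a J-domain protein of secretory vesicles, was lower in all pairs, from 1287 to 1030, 1638 to 1510, 1404 to 1036 and 1343 to 1093. In all, 4 members were higher on the B-DNA array in every pair (Dnaja2, Dnajb4, Dnajc13 and Hsp90b1; 7.14%, against 5.47% of genes) and 5 were lower (Dnajc5, Dnajc7, Hspa1a, Hspa4 and Hspd1; 8.93%, against 7.75%). A second Hsp90b1 probe set was higher after B-DNA in 2 of the 4 pairs only. By the probe sets used, Dnajb4 and Dnajc5 of the 9 members kept their direction in all 4 pairs under each of the 3 other scalings. The probe sets of Dnajc5 disagree, however. Its second brightest was lower in every pair. The next 2 were higher after B-DNA in Tbk1-/- cells (0.15 and 0.13), and the dimmest in WT (0.32) and double mutant cells (0.23). Other Hspa4 probe sets were higher in Tbk1-/- cells (0.13 and 0.28), and the other Dnaja2 probe set was lower there (-0.18).

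The response of no member was called as dependent on Tbk1, where limma called 0.239% of genes with a higher and 1.83% with a lower response in cells lacking Tbk1; 8 members (14.3%) had an unadjusted p under 0.05, against 16.5% of genes. The lowest adjusted p belonged to Hspb8, whose response was higher by 1.19 without Tbk1 (SE 0.24, limma adjusted p = 0.083). Its log2 ratios were -1.29 and -0.70 in WT and Ikbke-/- cells and 0.11 and 0.27 in Tbk1-/- and double mutant cells. Its other probe sets differed less: in the same order they gave -0.46, -0.78, -0.12 and -0.27, and 0.06, -0.27, 0.06 and 0.01. A higher floor brought this p to 0.028 and keeping only genes above the floor on all 8 arrays to 0.030, and the other settings of scaling, floor, filter and probe sets left it between 0.062 and 0.40. With each genotype left out in turn it was 0.33 to 0.44, and without the WT pair the difference was 0.89 (adjusted p = 0.37). Hspa14, an HSP70 relative bound to ribosomes, had a difference of 1.02 (SE 0.23, limma adjusted p = 0.10): its log2 ratios were -0.50 and -0.85 in WT and Ikbke-/- cells and 0.45 and 0.25 in Tbk1-/- and double mutant cells. Hspa4l, an HSP110-type gene, had the opposite order, -0.89 (SE 0.23, limma adjusted p = 0.14), with signals of 306 and 576 in the WT pair. Its log2 ratio in the double mutant was -0.49. A second Hspa4l probe set was higher after B-DNA in every pair, by 0.70 in WT, 0.29 in Tbk1-/-, 0.61 in Ikbke-/- and 0.26 in double mutant cells. For dependence on Ikbke limma called 0 members and 0 of 9626 genes (0.0%), with 4 members (7.14%) and 435 genes (4.52%) at an unadjusted p under 0.05.

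At the settings used for the main values, the members called in a fit were all called between genotypes, and the lowest adjusted p belonged to Hspb1 (HSP27), a small heat shock protein that protects the actin cytoskeleton and holds unfolding proteins. Its signals were 4909 and 4516 in WT, 11510 and 12100 in Tbk1-/-, 6291 and 5134 in Ikbke-/-, and 2544 and 1983 in double mutant cells, mock first. The 2 arrays of a genotype lay close together, and both Tbk1-/- arrays stood above and both double mutant arrays below all others. With treatment as a block and both arrays of a genotype as its samples, a test added after the data were seen, Hspb1 rose by 1.33 in Tbk1-/- cells relative to WT on the log2 scale (SE 0.15, limma adjusted p = 0.021, and 0.069 with no filter on low genes). It fell by 1.07 in the double mutant (SE 0.15, limma adjusted p = 0.017) and differed from WT by 0.27 in Ikbke-/- cells (SE 0.15, limma adjusted p = 0.42). A second probe set gave the same order, with 2196 and 1881, 6461 and 7155, 3241 and 2529, and 765 and 455.

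Over the 4 genotypes limma called 3 of 56 members (5.36%), fewer than the 20.4% of all genes called. Hspb1 had an adjusted p of 0.0051 in limma's F test. Hspa4, an HSP110-type nucleotide exchange factor, had 0.032, with signals of 1666 and 1109 in WT, 1868 and 1759 in Tbk1-/-, 1922 and 1610 in Ikbke-/-, and 924 and 855 in double mutant cells. Its double mutant arrays were the lowest 2, but a second probe set read 995 and 676 there against 387 and 424 in Tbk1-/- cells, so its probe sets disagree on the order. The adjusted p was 0.19 with the mean over probe sets, 0.062 with a lower floor and 0.095 with no filter, which end the call. Dnaja1, a J-domain partner of cytosolic HSP70, had 0.039, with signals of 2684 and 2690, 3549 and 3243, 4237 and 4475, and 2634 and 2062 in the same order; quantile normalization (0.051), a lower floor (0.082) and no filter (0.094) end this call. Both Ikbke-/- arrays were the highest, also by the second probe set (2629 and 3203), and the difference from WT was 0.70 (SE 0.15, limma adjusted p = 0.089).

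Against WT, the only calls among the members were Hspb1 in Tbk1-/- cells (1.14% of genes higher, 1.73% lower) and Hspb1 and Dnaja2 in the double mutant (8.45% higher, 5.24% lower); none was called in Ikbke-/- cells (1.25% higher, 1.75% lower), and 10, 12 and 4 members had an unadjusted p under 0.05 in these 3 contrasts (17.9%, 21.4% and 7.14%), against 18.9%, 30.1% and 18.8% of genes. Dnaja2, another cytosolic J-domain partner, had signals of 1275 and 1327 in WT, 1197 and 1214 in Tbk1-/-, 1099 and 1171 in Ikbke-/-, and 887 and 952 in double mutant cells. It fell by 0.50 in the double mutant (SE 0.11, limma adjusted p = 0.043). Its second probe set read 508 and 549 in WT and 585 and 540 in the double mutant, and the adjusted p was 0.20 with the mean over probe sets, 0.13 with a lower floor, 0.074 among genes above the floor on all 8 arrays and 0.052 without scaling. A fit with Tbk1 and Ikbke as additive terms called 0 members and 0 genes for level (0.0%), with 365 and 238 genes (3.79% and 2.47%) and 0 members at an unadjusted p under 0.05; in Hspb1 the single and double mutants lie on opposite sides of WT, which additive terms cannot describe.

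**Figure D3:**
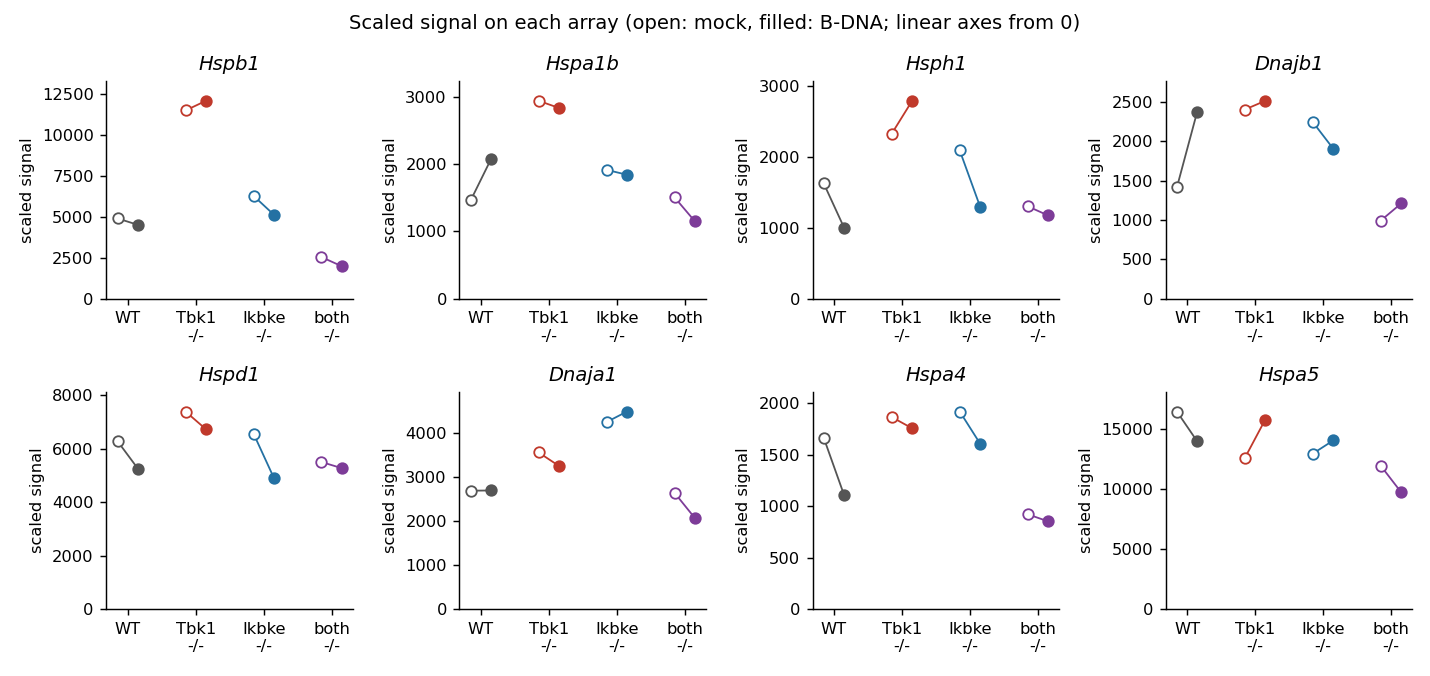
Scaled signal (y axis, linear from 0) of 8 members in WT, Tbk1-/-, Ikbke-/- and double mutant cells (x axis); open points are mock arrays, filled points B-DNA arrays, and a line joins the pair of a genotype. Hspb1 lies at 11510 and 12100 in Tbk1-/- cells and at 2544 and 1983 in the double mutant, with WT and Ikbke-/- cells between.

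Several other heat-inducible genes also had their highest signals in Tbk1-/- cells. Both Tbk1-/- arrays lay above all 6 others for 10 of 56 members (17.9%), against 8.36% of genes: Hspb1, Hspa1b, Hsph1, Hspd1, Dnajb1, Dnajb2, Dnajb5, Dnajb9, Dnajc5 and Dnajc21. The first 5 belong to the 12 measured genes of a list of textbook heat-inducible members. Hspa1b, the inducible cytosolic HSP70, read 2941 and 2835 in Tbk1-/- cells, 1460 and 2075 in WT, 1915 and 1842 in Ikbke-/-, and 1505 and 1148 in double mutant cells. Its difference from WT in Tbk1-/- cells was 0.73 (SE 0.23, limma adjusted p = 0.18), which did not pass. Hsph1 (HSP110), which recharges HSP70, read 2325 and 2788 in Tbk1-/- cells, 1624 and 999 in WT, 2089 and 1296 in Ikbke-/-, and 1302 and 1173 in double mutant cells. Dnajb1 (HSP40), the main inducible J-domain partner of HSP70, read 2406 and 2517 in Tbk1-/- cells, 1415 and 2381 in WT, 2246 and 1908 in Ikbke-/-, and 994 and 1212 in double mutant cells. For Dnajb1 the margin over WT cells treated with B-DNA was small. Its second probe set read 1867 and 1622 in Tbk1-/- cells and 1725 in WT cells treated with B-DNA. Hspa1a was not among the 10, since its signal of 437 on the Tbk1-/- B-DNA array was under the 509 of the Ikbke-/- mock array.

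Both double mutant arrays lay below all 6 others for 10 members as well (17.9%, against 9.71% of genes): Hspb1, Hspa4, Hspa5, Dnaja1, Dnaja2, Dnaja4, Dnajb1, Dnajb5, Dnajb6 and Dnajb11. By the probe sets used, Hspb1, Dnajb1 and Dnajb5 were thus highest in Tbk1-/- and lowest in double mutant cells. The double mutant arrays were the highest for 6 members (10.7%, against 21.6%): Hspb11 and the J-domain genes Dnajc4, Dnajc9, Dnajc14, Dnajc18 and Dnajc30. Their counts depend on the scaling: without it 11 members (19.6%) were highest in Tbk1-/- cells, where 15.6% of genes were, with Hspd1 lost and Hsp90aa1 and Hspa2 gained. Without it 25 members (44.6%) were lowest in the double mutant, where 27.3% of genes were, and 0 were highest there, where 3.63% of genes were. With the mean over probe sets 8 members (14.3%, against 7.71% of genes) were highest in Tbk1-/- cells. Dnajb1, Dnajb5 and Dnajc5 were then not among them, and Hsp90aa1 was. The double mutant was then lowest for 10 members (17.9%, against 9.88%), without Hspa4, Dnaja1 and Dnaja2. Dnaja4, a J-domain gene with low signals, read 361 and 241 in WT, 263 and 346 in Tbk1-/-, 282 and 231 in Ikbke-/-, and 168 and 224 in double mutant cells.

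The heat-inducible list had a median log2 difference from WT of 0.32 in Tbk1-/- cells, with 9 of 12 genes higher, and of 0.15 in Ikbke-/- cells, also 9 of 12. In the double mutant it was -0.19, with 11 of 12 lower. Medians over all genes were -0.01, -0.05 and 0.04. In the list, 1 gene was called higher in Tbk1-/- cells and 1 lower in the double mutant, Hspb1 in both. The list kept these signs under no scaling, quantile normalization and median scaling (0.29 to 0.57, 0.11 to 0.31 and -0.66 to -0.16). Without scaling, which gave 0.57 and -0.66 in Tbk1-/- and double mutant cells, the medians over all genes were themselves 0.15 and -0.29. The 8 measured members of the endoplasmic reticulum had medians of -0.07, -0.14 and -0.14, and the 7 mitochondrial ones of -0.05, -0.02 and -0.10, with 0 called. In the double mutant 7 of the 8 and 5 of the 7 were lower than in WT. All 8 of the endoplasmic reticulum were lower there without scaling (median -0.61) and with median scaling (-0.22), so lower values in the double mutant were not particular to the heat-inducible list. In Tbk1-/- cells the medians of both lists turned positive under median scaling (0.08 and 0.10, with 0.08 over all genes). They did so without scaling as well (0.15 and 0.17, with 0.15 over all genes), so in Tbk1-/- cells these lists lay near 0 relative to all genes. Since the 3 contrasts share the WT arrays, their values are given side by side and not compared.

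**Figure D4:**
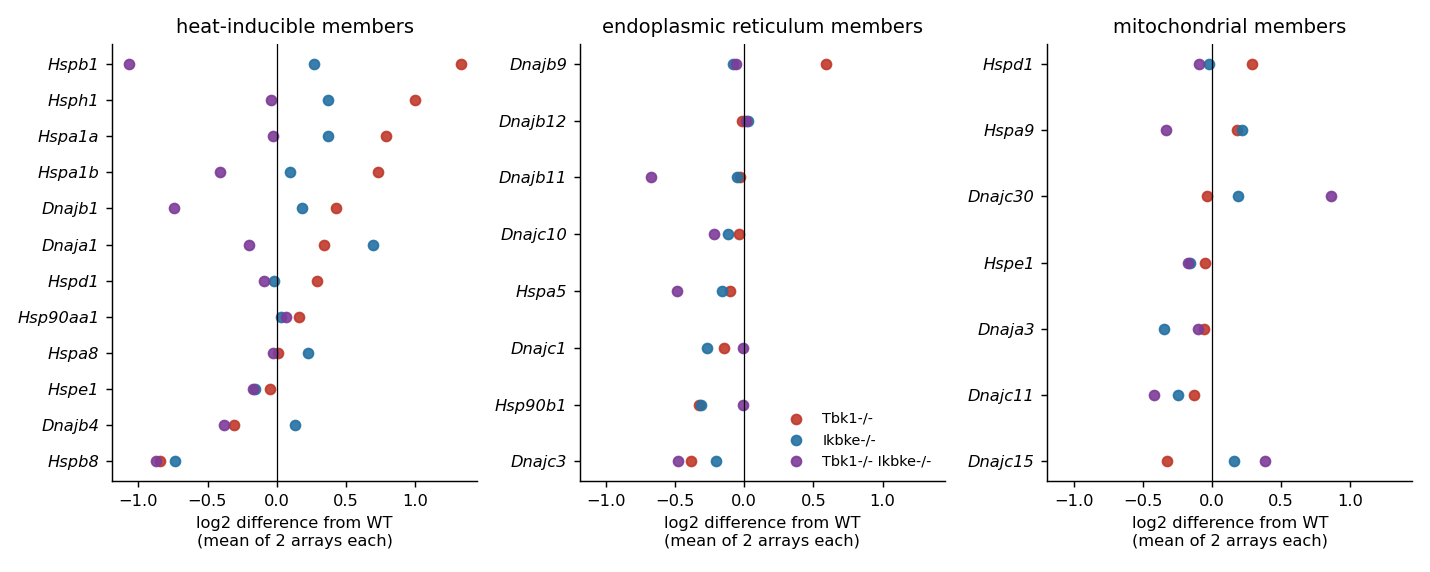
Mean log2 signal of both arrays of each mutant genotype minus that of WT (x axis) for the heat-inducible, endoplasmic reticulum and mitochondrial members (y axis, in the order of the Tbk1-/- value). Hspb1 lies at 1.33 in Tbk1-/- cells and at -1.07 in the double mutant; most of the other heat-inducible genes have their Tbk1-/- point to the right of 0 and their double mutant point to the left.

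On the mock arrays alone, 4 members passed 2-fold in some mutant relative to the WT mock array (7.14%, against 16.4% of genes). In Tbk1-/- cells Hspb1 (log2 ratio 1.23) and Hspa1b (1.01) were higher (2.23% of genes) and Hspb8 (-1.55) was lower (3.33%; 5.57% in either direction). Hspa1b was under 2-fold with quantile normalization (0.95) and with the mean over probe sets (0.97). Hspb8 was also lower in Ikbke-/- cells (-1.03; 3.13% of genes lower, 2.31% higher, 5.43% in all). In the double mutant Hspb8 (-1.66) and Dnaja4 (-1.10) were lower (5.51% lower, 5.56% higher, 11.1% in all). The other Hspb8 probe sets read -1.17 and -0.62 in Tbk1-/-, -1.11 and -0.38 in Ikbke-/-, and -0.81 and -0.05 in double mutant cells. With the mean over probe sets Hspb8 was under 2-fold in Ikbke-/- and double mutant cells (-0.84 in both), as it was in Ikbke-/- cells with median scaling (-0.89). Dnaja4 was under 2-fold with the mean over probe sets (-0.70) and with a higher floor (-0.29). These ratios share the WT mock array, on which the macrophage and leukocyte markers were highest, and their part was not tested.

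Upstream sequences are shown for 3 genes with their highest signals in Tbk1-/- cells (Hspb1, Hsph1 and Hspa1b), for Hspe1, which shares its upstream region with Hspd1, and for Dnajb4, higher after B-DNA in every pair. Heat-inducible genes are known for the heat shock element, made of alternating GAA and TTC units. RefSeq windows of GRCm38.p6 were found for 50 of the 61 members, and the 250 bases before each annotated start were searched on both strands. GAANNTTC, the head-to-head pair, occurred in 10 of the 50, in 6 of 10 heat-inducible members and in 7.73% of 27025 genes. TTCNNGAA, the tail-to-tail pair, occurred in 6 members (12.0%), in 4 of the 10 and in 8.11% of genes. The form with 3 units, GAA, TTC and GAA each set apart by NN, contains both pairs and occurred in Hspd1, Hspe1 and Dnajb6 (6.0%) and in 0.514% of genes. Hspd1 and Hspe1, with their shared region, are both in all 3 counts. The near-identical Hspa1a and Hspa1b are both in the head-to-head count. The genes counted are thus not all separate sequences, and the shares were not tested. The capitals below mark these matches, and each stretch reads toward its gene.
Hspb1, chr5:135887776-135887875, plus strand: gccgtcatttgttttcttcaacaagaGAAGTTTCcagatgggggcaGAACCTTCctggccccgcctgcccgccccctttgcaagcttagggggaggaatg
Hsph1, chr5:149636337-149636436, minus strand: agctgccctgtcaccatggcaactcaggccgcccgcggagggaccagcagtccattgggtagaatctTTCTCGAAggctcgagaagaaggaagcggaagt
Hspa1b, chr17:34959289-34959388, minus strand: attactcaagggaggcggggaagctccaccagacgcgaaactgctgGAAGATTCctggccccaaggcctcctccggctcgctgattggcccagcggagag
Hspe1, chr1:55088055-55088084, plus strand: tccgTTCTAGAACCTTCCGGAAggccccgc
Dnajb4, chr3:152193846-152193945, minus strand: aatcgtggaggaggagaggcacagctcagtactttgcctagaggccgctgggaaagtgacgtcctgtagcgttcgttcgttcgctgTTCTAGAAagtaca

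Hspb1 had 2 head-to-head pairs. The stretch shown for Hspa1b was identical to that of its neighbour Hspa1a (chr17:34972207-34972306, minus strand) at 100 of 100 bases. The 2 genes are near-identical copies, so their probe sets may read both transcripts and their separate values above are uncertain. Hspe1 and Hspd1 are transcribed away from each other from starts 216 bases apart, and the run of units shown lies between them. Hspd1, the barrel subunit of the chaperonin, had both Tbk1-/- arrays (7389 and 6728) above WT (6281 and 5255), Ikbke-/- (6566 and 4908) and double mutant (5503 and 5273) arrays; for Hspe1 the double mutant mock array was the highest. Dnajb4, whose B-DNA array was higher in every pair, had its tail-to-tail pair next to the inner of its annotated starts. All genes shown have a match. Among the members highest in Tbk1-/- cells a GAA and TTC pair was found for Hspb1, Hsph1, Hspa1b and Hspd1. None was found for Dnajb1, Dnajb2, Dnajb5, Dnajb9, Dnajc5 and Dnajc21, of which some may have no window. Pairs also occurred in Dnaja1, highest in Ikbke-/- cells, and in Dnaja4 and Dnajb6, lowest in the double mutant. A match is a description of letters and shows no binding.

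The genes of the endoplasmic reticulum were searched for another element. The ER stress element, CCAAT and CCACG set apart by 9 bases, occurred upstream of Hspa5, Hsp90b1 and Dnajc3 (6.0% of members) and of 0.13% of genes, and the interferon-stimulated response element, a pair of GAAA set apart by NN, in 0 of 50 members and in 3.46% of genes. Hspa5 and Dnajc3 are shown with the ER stress element in capitals.
Hspa5, chr2:34771984-34772083, plus strand: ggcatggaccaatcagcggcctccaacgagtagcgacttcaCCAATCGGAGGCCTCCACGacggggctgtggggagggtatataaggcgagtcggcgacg
Dnajc3, chr14:118937786-118937885, plus strand: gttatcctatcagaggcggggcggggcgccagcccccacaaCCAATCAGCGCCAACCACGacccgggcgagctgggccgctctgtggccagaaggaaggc

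Hspa5 (BiP), the HSP70 of the endoplasmic reticulum, read 16410 and 13930 in WT, 12560 and 15740 in Tbk1-/-, 12920 and 14010 in Ikbke-/-, and 11900 and 9708 in double mutant cells. Only the double mutant pair lay below all others. Hsp90b1 (Grp94), its HSP90 counterpart, read 5470 and 5693, 4415 and 4485, 4364 and 4684, and 5163 and 5987 in the same order, higher after B-DNA in each pair by at most 0.21 on the log2 scale, which its second probe set did not share. Dnajc3, an inhibitor of the kinase Eif2ak3 and co-chaperone of Hspa5, read 862 and 920, 656 and 707, 598 and 997, and 725 and 560, without a common direction. None of the 3 was called by limma.

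The remaining brightest members of each class were not called in the tests above. Hspa8 (Hsc70), the constitutive cytosolic HSP70, read 14010 and 12510 in WT, 14290 and 12480 in Tbk1-/-, 15180 and 15740 in Ikbke-/-, and 12550 and 13420 in double mutant cells. A second Hspa8 probe set ranged more widely, from 6403 on the WT B-DNA array to 14090 on the Ikbke-/- mock array. Hsp90aa1, the inducible cytosolic HSP90, stayed between 4684 and 5617 on all 8 arrays, with log2 ratios of B-DNA over mock from -0.19 to 0.11. A second Hsp90aa1 probe set ranged from 3821 to 6354, with ratios from -0.32 to 0.28, and the third had a ratio of -0.53 in WT cells. Dnajb6, an aggregation suppressor, read 1816 and 1998 in WT, 2224 and 2067 in Tbk1-/-, 2017 and 2111 in Ikbke-/-, and 1532 and 1562 in double mutant cells. Dnajc8, a splicing-associated J-domain protein, read 2909 and 3186, 2970 and 3383, 3400 and 3602, and 3623 and 2750 in the same order. Dnajc10, a disulfide reductase of the endoplasmic reticulum, read 1437 and 1843, 1453 and 1740, 1570 and 1426, and 1444 and 1361. Hspbp1, which inhibits the HSP70 cycle, read 432 and 603, 472 and 422, 526 and 475, and 437 and 417. Dnajb6 was called between genotypes by limma without scaling and with median scaling.

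Genes around the chaperones were described through 3 lists. The first was of heat shock factors and co-chaperones, but none of its 20 measured genes was a heat shock factor, and Hsf2 stayed under the floor. Of the 20, 0 passed 2-fold in any pair and 0 were called for the average response. Their median log2 ratios were -0.19, 0.08, -0.33 and -0.08 in WT, Tbk1-/-, Ikbke-/- and double mutant cells. Bag3, an HSP70 release factor and itself heat-inducible, was lower after B-DNA in every pair, by -0.42, -0.28, -0.56 and -0.38 (average -0.41, SE 0.09, limma adjusted p = 0.61). Ahsa1, which stimulates the ATPase of HSP90, had an average of -0.36 (SE 0.09, limma adjusted p = 0.61) and Bag4 one of -0.38 (SE 0.19, limma adjusted p = 0.63). Of 8 subunits of the cytosolic chaperonin TRiC and of 22 unfolded protein response genes, 0 passed 2-fold in any pair or were called for the average response. The largest averages there were -0.27 for Cct5, -0.32 for Sel1l and -0.31 for Eif2ak3.

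Between genotypes, 3 of the 20 co-chaperone genes, 1 of the 8 TRiC subunits and 3 of the 22 unfolded protein response genes were called by limma's F test, against 20.4% of genes. Cryab, a small heat shock protein named outside the symbol rule, was among the former. It read 915 and 1143 in WT, 3632 and 4758 in Tbk1-/-, 1876 and 1735 in Ikbke-/-, and 919 and 1288 in double mutant cells. It rose by 2.02 in Tbk1-/- cells (SE 0.18, limma adjusted p = 0.012), as Hspb1 did, but differed from WT by 0.09 in the double mutant (SE 0.18, limma adjusted p = 0.79), where Hspb1 fell. The others called by the F test were Hsbp1, Bag2, Cct3, Xbp1, Manf and Ppp1r15a. Against WT, Bag2 (-0.76), Unc45a (-0.74), Cct3 (-0.88), Xbp1 (-0.77) and Manf (-0.58) fell in the double mutant and Ddit3 (0.78) rose. The limma adjusted p of these ran from 0.020 to 0.049, in a contrast with 5.24% of genes called lower and 8.45% higher. Unc45a and Ddit3 did not pass limma's F test (adjusted p = 0.061 and 0.052). Xbp1, a transcription factor of the unfolded protein response, read 6865 and 5870 in WT and 3802 and 3652 in the double mutant, the same side as Hspa5 and Dnajb11.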

How the data were processed

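The deposited intensity values are MAS5 signal per probe set on a linear scale, 1 one-colour array per sample, which the authors computed in Microarray Suite 5.0, as the series' design text gives; the scaling target is not given in the sources used here. The series' design text gives a different array model from that of the deposited probe set names.

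Each array was scaled so that its 2% trimmed mean was 500 (factors 1.96 to 3.58). Lower values were set to the floor, then log2 was taken. Of 22626 probe sets, 20380 had 1 symbol, and a gene was read from its probe set with the highest mean. Of the members, 36 had more than 1 probe set; B-DNA ratios of the 2 brightest differed by 0.5 or more (log2) in 12 of 100 comparisons over 25 genes.

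R 4.3.3 with limma 3.58.1 fitted 2-sided tests over 9626 genes and all 8 arrays, and was tested on simulated data. The average response and the genotype fit had 3 residual degrees of freedom, the dependence and additive level fits 1, moderated across genes. Whether cultures were separate is not given in the sources used here, so the p-values cover array-to-array spread that may be technical, and the number of arrays limits precision. The members and lists were chosen with earlier results of these data known.

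Values on all 8 arrays are given for members past 2-fold in a B-DNA pair or on a mutant mock array, members called in a fit and the 2 brightest of each class; of other lists, up to 4 members with the largest average response. Dnajb4, Dnajc5, Hspa1a, Hspa14, Hspa4l, Hsph1, Dnajc3 and the genes of other lists called between genotypes were named after their values were seen. Alternatives were no scaling, quantile normalization, median scaling, floors at the 20th and 60th percentile, the mean over probe sets, symbols not updated, no filter, only genes at or above the floor on all 8 arrays, and leaving out each genotype.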

Additional observations from a re-analysis of the deposited data

How the results depend on the processing

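Without scaling, the median log2 ratio of all genes moved to -0.39, -0.11, -0.23 and 0.10 in the WT, Tbk1-/-, Ikbke-/- and double mutant pairs, and that of the members to -0.51, -0.15, -0.22 and 0.17. Members past 2-fold then numbered 5 in WT, 3 in Ikbke-/- and 2 in double mutant cells and 23 on mutant mock arrays, and 8 were called between genotypes. Quantile normalization gave 2 members in the double mutant, and median scaling 7 called between genotypes. A floor at the 20th percentile gave 2, 1, 3 and 4 members in the 4 pairs and 8 on mutant mock arrays. A floor at the 60th percentile gave 2 members called for dependence on Tbk1 (Hspa14 and Hspb8) and 6 between genotypes; keeping only genes at or above the floor on all 8 arrays gave 2 (Hspb8 and Hspe1) and 6. The mean over probe sets gave 0 members in the WT, Ikbke-/- and double mutant pairs and 2 on mutant mock arrays. The cause of these changes was not tested beyond the settings' own construction.

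Leaving out each genotype in turn called 0 members for the average response. The fits for dependence on Tbk1 then also left out the term for dependence on Ikbke. Hspb1 was called between genotypes under every setting run, with adjusted p from 0.0011 to 0.025; its difference between Tbk1-/- and WT cells had an adjusted p of 0.069 without a filter and 0.010 to 0.039 under the others, and that between the double mutant and WT cells 0.010 to 0.047. Dnaja1 was lost with quantile normalization (0.051), the lower floor (0.082) and no filter (0.094), and Hspa4 with the lower floor (0.062), no filter (0.095) and the mean over probe sets. Of 54 alternative values of the 9 single ratios past 2-fold, 44 stayed past 2-fold, 10 did not and 0 reversed; 7 of these 10 came from the mean over probe sets. Listing symbols without the update is not counted, since it changed 0 symbols.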
